A study of Mus musculus with 9 samples.

Results

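Fc receptors bind the constant part of antibodies, and most of them signal through small partner chains that carry an immunoreceptor tyrosine-based activation motif (ITAM). The genes described here are 10 members of this system, chosen by name and read out across all libraries: the adaptor chains Fcer1g and Tyrobp, the Fcγ receptors Fcgr1, Fcgr2b, Fcgr3 and Fcgr4, the receptors Trem2 and Pirb, the kinase Syk and the phospholipase Plcg2. They are 10 of 39179 genes in the count tables, of which 21512 had a count in at least 1 library and 13418 were abundant enough to be tested. Of the members, 7 were tested, whereas Fcgr1, Fcgr4 and Trem2 were counted in too few libraries. The group was picked with the age differences of these same counts known, so the members' differences between ages are given as a description, without a p-value for any member, and counts of members past a threshold support nothing.

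RNA was sequenced from capillaries cut one by one, together with the cells around them, by laser microdissection from the ossification front (OF) of the femur. Juvenile mice were 4 weeks old (n = 5 libraries) and adult mice were 12 weeks old (n = 4 libraries), all untreated Tg(TIE2GFP)287Sato/J mice. The paper gives no background strain for this line. In these mice the Tie2 promoter drives green fluorescent protein, which marked the vessels to be cut, so every library holds endothelial cells and their neighbours and no cell type was sorted. Library totals ranged from 4856833 to 8077362 counts. The endothelial markers Pecam1 (41.7 to 103 normalised counts per 1000000, CPM) and Cdh5 (45.2 to 138 CPM) were present in every library. Ddx3y, a gene of the Y chromosome, had 524 and 439 counts in juvenile replicates 4 and 5, which held 11 and 1 counts of Xist, whereas Xist had at least 2965 counts in every one of the other 7 libraries.

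When an antibody-coated target clusters these receptors, Src family kinases phosphorylate the paired tyrosines of the ITAM, the kinase Syk docks there and phospholipase Cγ2 raises calcium. In bone, osteoclast precursors use the same chains: Tyrobp (DAP12) pairs with Trem2 and Fcer1g (the FcRγ chain) pairs with Oscar, and the calcium signal activates the transcription factor NFATc1, which drives osteoclast differentiation. Fcgr2b and Pirb carry the inhibitory counterpart of the motif (ITIM), which recruits phosphatases.

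The coding sequences of these motifs are shown for the 2 adaptor chains and the 2 inhibitory receptors. The ITAM was searched in all 10 members, whereas the ITIM was searched only in the tails of Fcgr2b and Pirb. Sequences were read from the GENCODE transcripts of GRCm38, 5′ to 3′ on the coding strand. Capitals mark the codons of the tyrosines and of the aliphatic or serine residues that define each motif.
Fcer1g: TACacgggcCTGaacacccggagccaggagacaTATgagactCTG
Tyrobp: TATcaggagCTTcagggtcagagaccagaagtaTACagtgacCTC
Fcgr2b: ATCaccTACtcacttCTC
Pirb, the last in the tail: AGTgtaTATgctactCTG
In Fcer1g the ITAM covered codons 65 to 79 of 86 and was split between exons 4 and 5 (chr1:171229889-171230072, minus strand). In Tyrobp it covered codons 92 to 106 of 114, also split between exons 4 and 5 (chr7:30415670-30417382, plus strand). Both chains had 7 codons between the tyrosine blocks. The Fcgr2b motif lay in exon 10 (codons 317 to 322 of 340, chr1:170961071-170961088, minus strand). The Pirb motif shown lay in exon 15 (codons 822 to 827 of 841, chr7:3712696-3712713, minus strand), and 2 further matches lay upstream of it in the tail. The search found no ITAM in the other 8 members.

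Among the 10 genes, the adaptor chains were far more abundant than the receptors. Per kilobase of transcript and averaged over the 9 libraries, Tyrobp stood at 818 CPM and Fcer1g at 281 CPM, which was 39.4-fold above the next member. Syk (7.14 CPM per kilobase), Plcg2 (6.16) and Fcgr3 (5.21) followed. The remaining members were Trem2 (2.15), Fcgr2b (1.69), Fcgr1 (1.41), Pirb (1.18) and Fcgr4 (0.342). Tyrobp was above Fcer1g in all 9 libraries, and Fcer1g was above Syk in all 9 with no overlap of their ranges. From Syk down to Pirb no gene was above its next neighbour in all 9 libraries, so this order was not separated from the spread between libraries, whereas Pirb was above Fcgr4 in all 9.

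**Figure D1:**
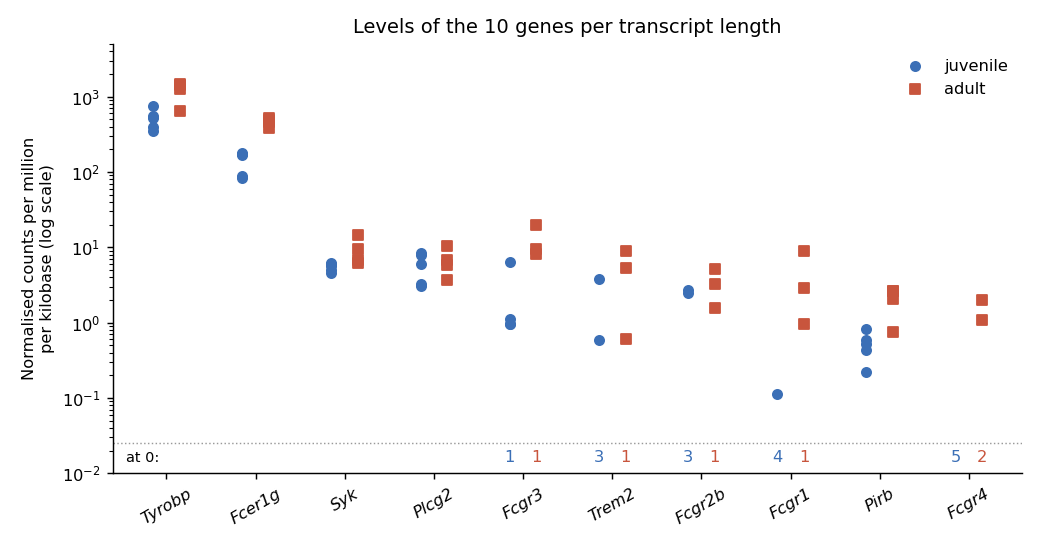
CPM per kilobase of transcript (log scale) for the 10 genes, ordered by their mean, with 1 circle per juvenile and 1 square per adult library. Libraries without a count are given as numbers under the dotted line. Tyrobp and Fcer1g lie far above the others, and counts of 0 are found only among the Fcγ receptors and Trem2.

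Fcer1g encodes the FcRγ chain that activating Fc receptors and Oscar need for signalling (chr1:171229572-171234365, minus strand). Its level was 116, 113, 120.5, 59.7 and 55.3 CPM in juvenile replicates 1 to 5. In adult replicates 1 to 4 it was 332, 258, 346 and 306 CPM. Every adult library lay above every juvenile library. The means were 92.8 ± 32.4 CPM (SD, n = 5) and 310.5 ± 38.8 CPM (SD, n = 4), a 3.34-fold higher adult level, and the fitted log2 fold change was 1.74 (SE 0.25). Within the juvenile group the values fell into a higher and a lower set, with the lower values in the 2 libraries that held Ddx3y counts. Without these 2 libraries the log2 fold change of Fcer1g was 1.41 (SE 0.19). The part of sex in this difference was not tested, since no adult library held more than 1 count of Ddx3y.

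Tyrobp encodes DAP12, the ITAM chain of Trem2 and of many other myeloid receptors (chr7:30413760-30417585, plus strand). Juvenile replicates 1 to 5 gave 424, 297, 311, 199 and 222 CPM. Adult replicates 1 to 4 gave 803, 363, 826 and 704 CPM. Adult replicates 1, 3 and 4 lay above all juvenile libraries, whereas adult replicate 2 fell below juvenile replicate 1. The means were 291 ± 88.4 CPM and 674 ± 214 CPM (SD), and the log2 fold change was 1.21 (SE 0.27). It was 1.44 without adult replicate 2 and 0.97 without juvenile replicates 4 and 5.

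Fcer1g and Tyrobp were the 2 of the 7 tested members past an adjusted p of 0.05 in edgeR's quasi-likelihood test, beside 3.88% of all tested genes in either direction and 1.89% with the higher level in adult and 1.99% in juvenile libraries. Fcer1g was the 1 tested member with every adult library above every juvenile library, an order found in 4.08% of all tested genes, and no member had the opposite order, found in 5.07%. As this contrast chose the group, nothing was read from these counts. With any 1 library omitted, Fcer1g had a log2 fold change between 1.60 and 1.85 and Tyrobp one between 1.10 and 1.44.

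The ratio of the 2 chains also differed between ages. Per kilobase, Tyrobp exceeded Fcer1g by 3.09-fold to 4.79-fold in juvenile libraries and by 1.68-fold to 2.89-fold in adult libraries, without overlap. The lowest ratio was that of adult replicate 2, in which Fcer1g was high and Tyrobp was not. This ratio was taken from the values that chose the genes and was not tested.

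**Figure D2:**
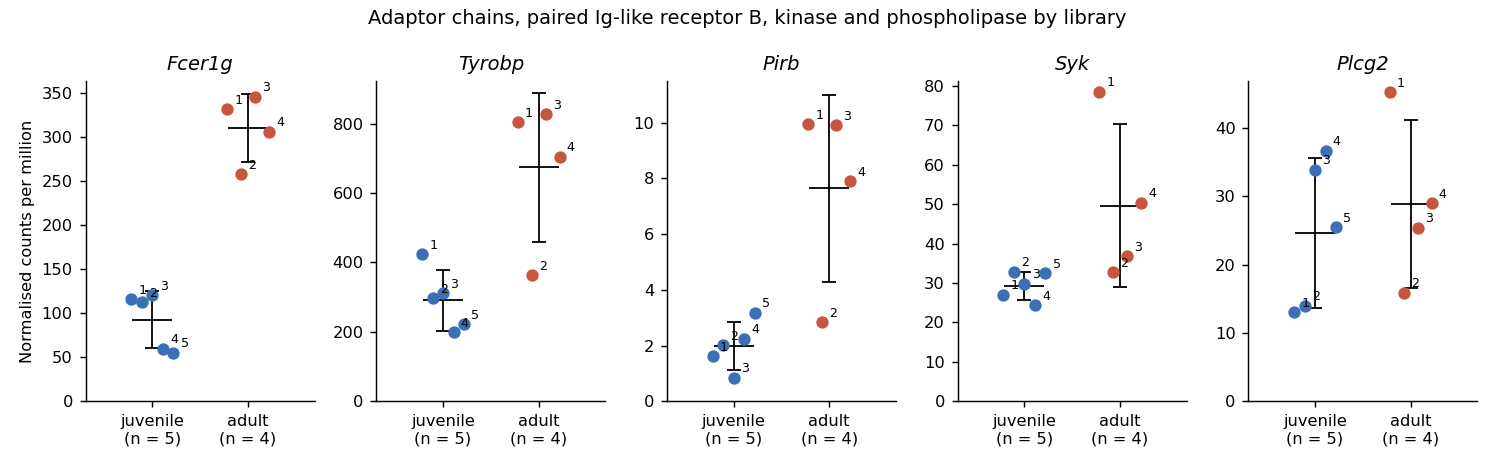
CPM of Fcer1g, Tyrobp, Pirb, Syk and Plcg2 in each library, with points numbered by replicate and bars for the mean ± SD of 5 juvenile and 4 adult libraries. For Fcer1g the adult points start at 258 and the juvenile points end at 120.5, while the other 4 genes overlap between ages. Adult replicate 2 is the lowest adult point of all 5 genes.

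The Fcγ receptors themselves were counted at low levels and unevenly. Fcgr1 encodes FcγRI, the high-affinity receptor for IgG (chr3:96282909-96293969, minus strand). It had 0, 2, 0, 0 and 0 counts in juvenile replicates 1 to 5. In adult replicates 1 to 4 it had 197, 0, 20 and 59 counts. Thus 3 of 4 adult libraries held more Fcgr1 than any juvenile library, and adult replicate 2 held none.

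Fcgr3 encodes FcγRIII, an activating low-affinity receptor that requires the FcRγ chain (chr1:171051174-171064935, minus strand). Its counts were 0, 59, 6, 8 and 6 in juvenile replicates 1 to 5 and 231, 0, 104 and 88 in adult replicates 1 to 4. Adult replicate 2 was again at 0, and the log2 fold change was 2.31 (SE 1.30). Fcgr4, which encodes the activating receptor FcγRIV (chr1:171018920-171029761, plus strand), was not counted in any juvenile library. Adult replicates 3 and 4 held 11 and 20 counts of it, and adult replicates 1 and 2 held none. A count of 0 allows up to 3 counts, which was 0.432 to 0.638 CPM in juvenile and 0.347 to 0.501 CPM in adult libraries, so lower levels were not detectable at this depth.

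Fcgr2b encodes FcγRIIB, the inhibitory Fcγ receptor (chr1:170958617-170976547, minus strand). It had 0, 30, 0, 21 and 0 counts in juvenile replicates 1 to 5. Adult replicates 1 to 4 held 21, 0, 42 and 65 counts. The groups overlapped, and the log2 fold change was 1.23 with an SE of 1.52. Fcgr2b and Fcgr3 are close paralogues over their extracellular parts, so how reads were shared between them is uncertain.

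Summed over the 4 Fcγ receptors, juvenile libraries held 0, 91, 6, 29 and 6 counts and adult libraries 449, 0, 177 and 232 counts. The juvenile total of 132 thus rested mainly on replicate 2. Juvenile replicate 1 and adult replicate 2 had no Fcγ receptor count at all, yet Fcer1g was at 116 and 258 CPM there. Activating receptors made up 81 of 132 juvenile counts and 730 of 858 adult counts, and with so few libraries above 0 this split was not tested.

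**Figure D3:**
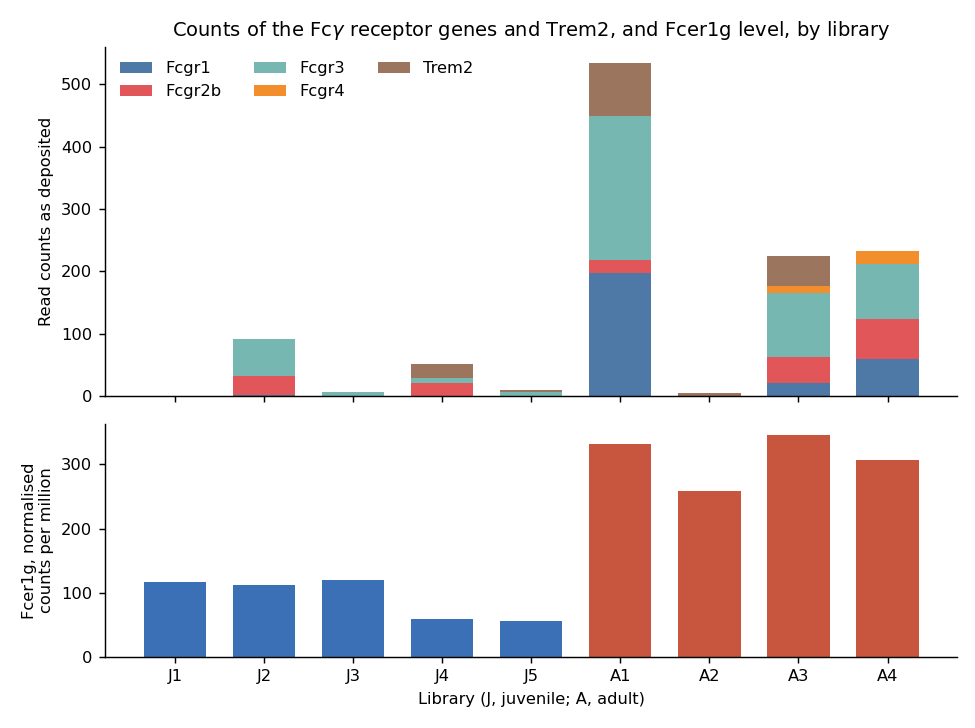
Upper panel, read counts of Fcgr1, Fcgr2b, Fcgr3, Fcgr4 and Trem2 stacked for each library. Lower panel, the Fcer1g level in CPM. Adult replicates 1, 3 and 4 carry most receptor counts, while adult replicate 2 has an Fcer1g level of 258 and no Fcγ receptor count.

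Trem2 encodes a lipid-sensing receptor of macrophages, microglia and osteoclast precursors that signals through DAP12 (chr17:48346401-48354147, plus strand). It had 0, 0, 0, 22 and 3 counts in juvenile replicates 1 to 5. Adult replicates 1 to 4 had 85, 4, 47 and 0 counts. Trem2 did not follow the Fcγ receptors across the adult libraries: adult replicate 4 held 232 Fcγ receptor counts and no Trem2. Pirb encodes paired Ig-like receptor B, an inhibitory receptor for MHC class I (chr7:3711409-3720391, minus strand). It was at 1.63, 2.02, 0.851, 2.25 and 3.18 CPM in juvenile replicates and at 9.94, 2.84, 9.90 and 7.89 CPM in adult replicates. Adult replicate 2 lay within the juvenile range and the other adult libraries above it. The log2 fold change of Pirb was 1.93 (SE 0.75), and reads of the closely related Pira genes could be counted with it.

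The downstream enzymes had smaller fold changes than the chains. Syk, the kinase that docks on phosphorylated ITAMs (chr13:52583173-52648792, plus strand), was at 27.0, 32.8, 29.8, 24.4 and 32.4 CPM in juvenile replicates. The adult values were 78.5, 32.7, 36.7 and 50.4 CPM. Only adult replicate 2 overlapped with the juvenile libraries, and the log2 fold change was 0.76 (SE 0.30). Plcg2, the phospholipase of this pathway (chr8:117498291-117635142, plus strand), was at 13.1, 14.0, 33.8, 36.6 and 25.4 CPM in juvenile replicates. In adult replicates it was at 45.2, 15.9, 25.4 and 28.9 CPM. The groups overlapped except that adult replicate 1 lay above and juvenile replicates 1 and 2 lay below all libraries of the other age, with a log2 fold change of 0.23 (SE 0.43) that became -0.05 without adult replicate 1.

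The upstream sequence was examined for 9 members listed in the RefSeq promoter table for GRCm38.p6. The hexamer GAGGAA, a core recognised by the myeloid transcription factor PU.1 and by related ETS factors, was searched on both strands in the 250 bases before each start and was chosen after the sequences had been seen. It was present for 6 of 9 members (Fcgr1, Fcgr3, Fcgr4, Trem2, Pirb and Syk) and for 25.9% of 27025 genes in the table. The longer GAGGAAGT, which contains the hexamer, was found for Fcgr4 and Pirb and for 2.79% of genes. Fcer1g, Fcgr2b and Plcg2 had no match in this window. The 150 bases before the start are shown for 3 members with a match whose window crosses no annotated exon, with the match (TTCCTC, the hexamer on the other strand) in capitals.
Fcgr1: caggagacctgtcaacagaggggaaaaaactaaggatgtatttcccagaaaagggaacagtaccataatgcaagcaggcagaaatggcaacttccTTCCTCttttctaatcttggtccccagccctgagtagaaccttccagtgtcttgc
Fcgr3: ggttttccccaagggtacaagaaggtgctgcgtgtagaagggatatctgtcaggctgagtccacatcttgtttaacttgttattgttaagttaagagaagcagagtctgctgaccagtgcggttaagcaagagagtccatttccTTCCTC
Trem2: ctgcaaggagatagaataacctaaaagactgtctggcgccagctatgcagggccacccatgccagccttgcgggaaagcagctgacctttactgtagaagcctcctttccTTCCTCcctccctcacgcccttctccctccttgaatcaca
These windows were chr3:96293970-96294119 (minus strand), chr1:171059404-171059553 (minus strand) and chr17:48346251-48346400 (plus strand). The Fcgr3 window lay inside the gene span given above, before a start within the gene. Another listed Fcgr3 start had the same match, but its window (chr1:171059395-171059544) crossed 2 annotated exons and is not shown. A match describes the letters only and does not show that a factor binds there.

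The other genes of the pathway were taken from 8 lists of 116 genes in all, of which 61 were tested. The calls were 4 genes higher in adult and 1 higher in juvenile libraries. The median log2 fold change over these 61 genes was 0.33, beside 0.01 over all tested genes. edgeR called none of the 2 tested other Fc receptors, 4 tested ITAM or related chains, 4 tested receptors that pair with Tyrobp or Fcer1g and 1 tested heavy chain gene. At an unadjusted p under 0.05 the only ones in these 4 lists were 2 of the chains, and DESeq2 called 2 chains (Cd79a and Cd3d) and 2 pairing receptors (Trem3 and Clec4e).

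Among other Fc receptors, 2 of 14 were tested. Fcgrt, the neonatal Fc receptor that recycles IgG in endothelial cells and macrophages, was at 141 to 329 CPM and did not differ beyond the spread (log2 fold change -0.11, SE 0.24, edgeR adjusted p = 0.882). Trim21, a cytosolic antibody receptor, ranged from 0 to 25.1 CPM (adjusted p = 0.931). The IgE receptor chains Fcer1a and Ms4a2, which use the FcRγ chain in mast cells, had no count in any library.

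The receptors that pair with the chains were mostly rare. Of 24 such genes 4 were tested, and 4 had no count in any library. Oscar, the collagen-binding partner of the FcRγ chain on osteoclasts, was found in every library at 45.8 to 119 CPM. It did not differ between ages beyond the spread (log2 fold change 0.40, SE 0.29, adjusted p = 0.557). Siglec15, an osteoclast receptor that signals through DAP12, was at 1.04 to 26.2 CPM (log2 fold change 0.03, adjusted p = 0.993). Among the other signalling chains, Hcst (DAP10) had a log2 fold change of 1.18 (adjusted p = 0.285), and the B cell receptor chains Cd79a (4.17, adjusted p = 0.0768) and Cd79b (3.36, adjusted p = 0.301) were not past the threshold.

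Inhibitory receptors and the regulators of proximal kinases held 2 of the calls. Clec12a, an inhibitory C-type lectin of myeloid cells, rose from 82.2 ± 33.1 CPM in juvenile to 249 ± 96.0 CPM in adult libraries (log2 fold change 1.60, SE 0.33, adjusted p = 0.0193), the 1 call among 9 tested ITIM receptors. Ptprc (CD45), the phosphatase of haematopoietic cells that activates Src family kinases, rose from 15.6 ± 7.91 to 60.2 ± 18.7 CPM (1.95, SE 0.43, adjusted p = 0.0261), the 1 call among 5 tested genes of its list. The Src family kinase Lyn had a log2 fold change of 0.70 (adjusted p = 0.383). The call of Ptprc was lost in 7 of 18 alternatives (adjusted p up to 0.116), over which its log2 fold change was 1.63 to 2.21.

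Of 21 tested genes in the list of Syk pathway adaptors and effectors, 2 were past the threshold. Nfatc1 rose from 123 ± 28.0 to 257 ± 48.0 CPM (log2 fold change 1.07, SE 0.21, adjusted p = 0.0142), and all adult libraries lay above all juvenile libraries. Zap70, the lymphocyte relative of Syk, was at 0.939 to 12.5 CPM in juvenile libraries and had no count in the adult libraries, at least 15.1-fold lower when each adult library is set to 3 counts (adjusted p = 0.0148). It passed the filter on low counts through the juvenile libraries alone. The guanine exchange factor Vav2 had a log2 fold change of -1.37 (adjusted p = 0.0569), and the other tested genes of the list had adjusted p of at least 0.166. Of 15 tested phosphatases and negative regulators, Dok3, an adaptor that restrains immunoreceptor signalling, rose from 33.1 ± 7.14 to 83.2 ± 18.2 CPM (log2 fold change 1.33, SE 0.26, adjusted p = 0.0142). Ptpn6 (SHP-1), the phosphatase recruited by ITIMs, had a log2 fold change of 1.62 (adjusted p = 0.0822), and Inpp5d (SHIP1) had 0.86 (adjusted p = 0.196). Without juvenile replicates 4 and 5 none of the 5 called genes (Clec12a, Ptprc, Nfatc1, Zap70 and Dok3) was past the threshold (adjusted p between 0.0844 and 0.138). Their log2 fold changes were then 1.31, 1.63, 1.01, -8.26 and 1.34, and fewer libraries entered that fit.

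**Figure D4:**
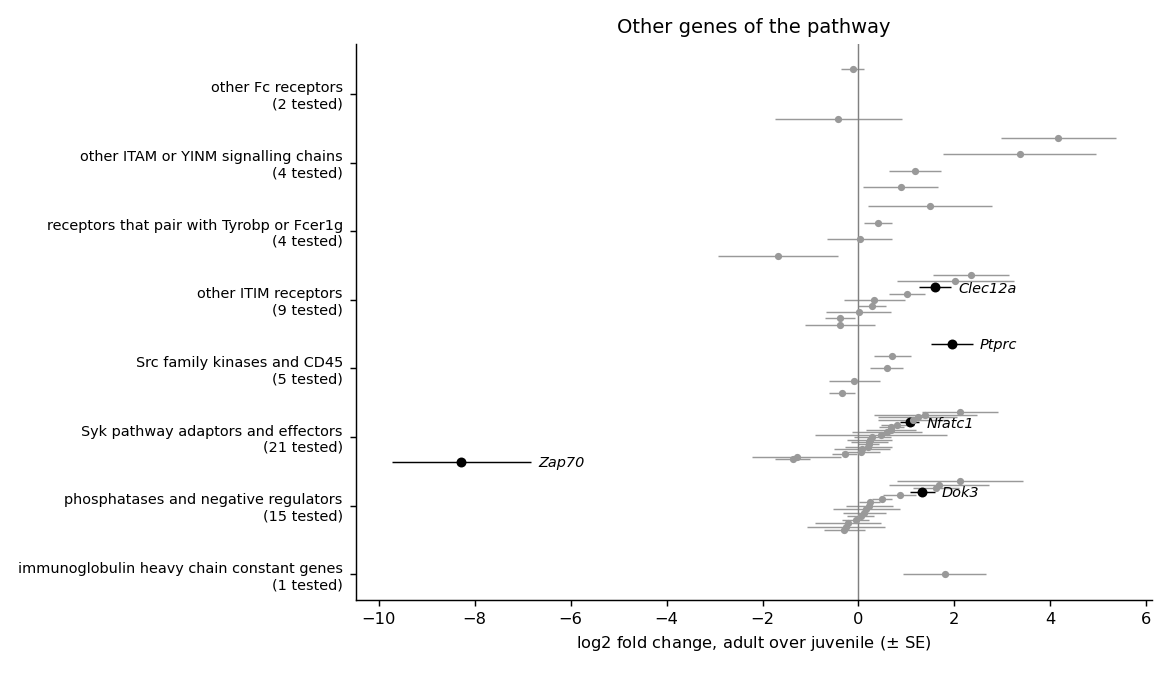
Log2 fold change of adult over juvenile (± SE, horizontal axis) for the 61 tested genes of the 8 pathway lists (vertical axis), with genes past an adjusted p of 0.05 in black and named. The fitted value of Zap70 depends on the handling of its counts of 0 in all adult libraries, and most other points lie near 0.

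Transcripts of antibody heavy chain genes were scarce in most libraries. Antibody protein, the ligand of Fc receptors, was not measured. The IgG heavy chain genes Ighg1, Ighg2b, Ighg2c and Ighg3 were listed at 0 in every library. Ighm ranged from 0 to 12.1 CPM in juvenile and from 7.52 to 36.7 CPM in adult libraries (log2 fold change 1.80, SE 0.87, adjusted p = 0.314). Igha reached 193 CPM in adult replicate 4 and at most 2.12 CPM in the other libraries.

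The genes whose profile over the 9 libraries was most like each chain were found among 9877 genes, by the mean absolute difference of centred log2 CPM. For Tyrobp these were Ucp2 (0.14), Crip1 (0.15), Cmtm7 (0.17), Glul (0.18) and Spi1 (0.21), which encodes PU.1. For Fcer1g they were Hmgn2 (0.15), Fhl2 (0.19), Rgs10 (0.24), Steap4 (0.27) and Hscb (0.27). The difference between Tyrobp and Fcer1g was 0.31, so Fcer1g ranked 64 among the genes closest to Tyrobp and Tyrobp ranked 13 among those closest to Fcer1g. The 9 libraries share their ages, so this likeness describes the profiles and nothing further.

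The chains are expressed by several myeloid cell types, and the marker genes of these types moved between libraries as well. In such bulk samples, more cells of a type and more RNA per cell cannot be told apart. Summed over 12 macrophage markers, juvenile libraries ranged from 571 to 864 CPM and adult libraries from 1024 to 1721 CPM. Of 11 tested markers 1 was called, Csf1r, the receptor for macrophage colony-stimulating factor (log2 fold change 1.03, SE 0.16, edgeR adjusted p = 0.00406). Cd68 had a log2 fold change of 0.55 (adjusted p = 0.256), and it and Csf1r made up most of the sum in every library. Mertk, a receptor for apoptotic cells, had a log2 fold change of -1.07 (adjusted p = 0.183) with every juvenile library above every adult library, and Cd14 had -0.16 (adjusted p = 0.951). C1qa was at 107, 0.167, 32.4 and 72.7 CPM in adult replicates 1 to 4 and at most 9.01 CPM in juvenile libraries. Vsig4 was at 0 in all libraries, and Adgre1 (F4/80) was at 0 in juvenile replicates 1, 2 and 5 and adult replicate 2. C1qa and the Fcγ receptors were thus low or absent in the same adult library, while Csf1r was at 632 CPM there.

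Summed neutrophil markers (11 genes) ranged from 25.5 to 85.0 CPM in juvenile and from 114 to 4450 CPM in adult libraries. Of 10 tested markers 8 were called higher in adult libraries, and Mmp8 (log2 fold change -0.25) and Cxcr2 (0.22) were not called. Among the 8, Ltf, Ngp and Retnlg passed the filter on low counts through the adult libraries. The lowest adult sum was that of adult replicate 2, and the other adult libraries had at least 3552 CPM. The neutrophil gene S100a8 was at 26.9 CPM in adult replicate 2 and at 1175 to 1351 CPM in the other adult libraries. None of these markers was at 0 in all libraries of an age, but Ltf and Lcn2 each had 1 juvenile count in all.

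Osteoclast markers (8 genes) ranged from 12908 to 21170 CPM in juvenile and from 16506 to 25622 CPM in adult libraries. Acp5, Ctsk and Mmp9 made up most of this sum in every library. The 2 called of 8 tested were Acp5, the tartrate-resistant acid phosphatase (log2 fold change 0.88, edgeR adjusted p = 0.00626), and Atp6v0d2, a proton pump subunit (0.93, adjusted p = 0.0400). Of the 6 not called, Ocstamp (-0.35), Calcr (-0.13) and Mmp9 (-0.13) had negative log2 fold changes. Those of Ctsk (0.15), Dcstamp (0.09) and Tnfrsf11a (0.50) were positive, and the median of the list was 0.12. Adult replicate 2, at 23376 CPM, was not low for this list. Mast cell and basophil markers summed to 5.62 to 17.0 CPM in juvenile and to 6.93 to 177 CPM in adult libraries. Of these, Tpsb2 had 998 counts in adult replicate 1 and none elsewhere. The 2 tested genes, Kit (log2 fold change 1.76) and Gata2 (-1.23), were not called by edgeR, with 0 at an unadjusted p under 0.05. DESeq2 called 2 (Cpa3 and Mcpt4). In all juvenile libraries 5 markers were at 0, Cpa3 and Mcpt4 among them, so both calls rest on adult counts alone. Endothelial markers ranged from 573 to 904 CPM in juvenile and from 679 to 789 CPM in adult libraries, with 0 of 8 tested genes called by edgeR, 0 at an unadjusted p under 0.05 and 0 called by DESeq2. The part of any of these cell types in the levels of the Fc receptor genes was not tested.

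**Figure D5:**
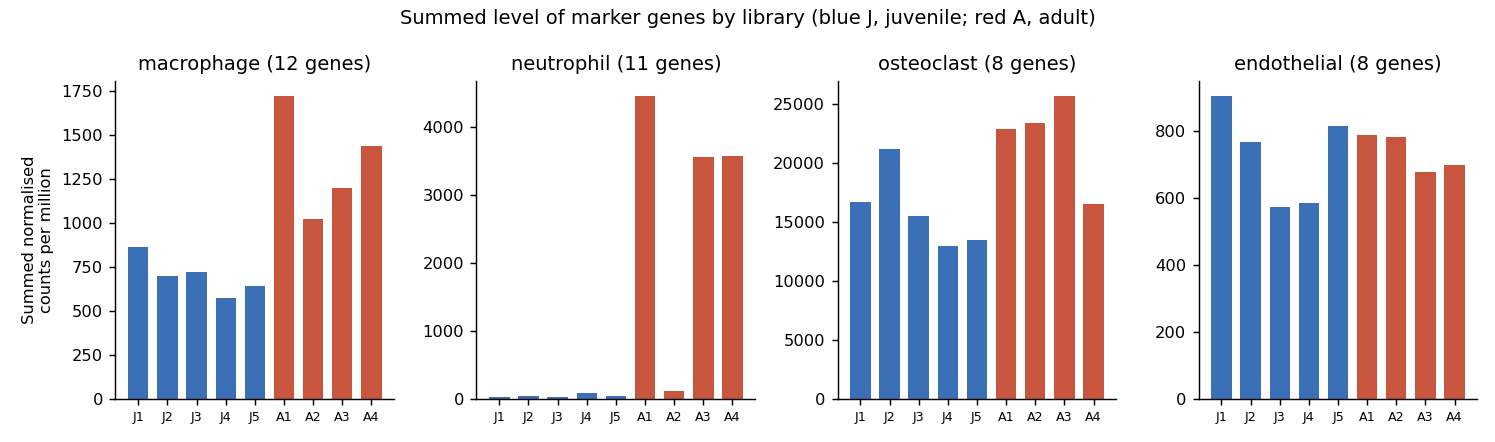
Summed CPM of macrophage, neutrophil, osteoclast and endothelial marker genes in each library, with juvenile libraries (J) in blue and adult libraries (A) in red. Adult replicate 2 is the lowest adult library for the macrophage sum (1024) and the neutrophil sum (114) and not for the osteoclast sum (23376).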

How the data were processed

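RNA of microdissected capillaries and surrounding cells was amplified by the authors with the SMART-Seq v4 kit, tagmented with Nextera XT, sequenced paired-end and mapped to mm10 (GRCm38). The submitters' processing notes name TopHat2, Bowtie2 and featureCounts; versions, strand setting and annotation release are not given in the sources used here, so reads of overlapping antisense genes could not be told apart. The authors deposited raw read counts per Ensembl gene, without normalisation, for each library.

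Symbols and positions were taken from GENCODE M21 (37693 of 39179 identifiers matched). Levels are counts per 1000000 (CPM) of the kept genes after TMM scaling, and per kilobase they were divided by the length of the principal transcript. Juvenile and adult libraries were compared with edgeR 4.0.16 (R 4.3.3; filterByExpr, quasi-likelihood F test without covariates, Benjamini-Hochberg adjustment over 13418 genes, threshold 0.05), with fold changes as adult over juvenile. The test was checked on simulated data, in which 43.5% of 200 changed genes were recovered and 4.40% of calls were false. limma 3.58.1 and DESeq2 1.42.0 served as alternatives. Replicate numbers come from the labels, and p-values measure only the spread between these libraries. No 2 of the 36 library pairs were copies. Floors of 3 counts cover counting error only.

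The members and the gene lists were chosen with earlier results of these data known. Named genes were all members, up to 5 called genes (by adjusted p) or up to 3 abundant genes per pathway list, up to 2 abundant and any called genes per marker list, and the 5 genes of at least 10 CPM most like each chain. The other genes named were chosen after their values were seen. 1 gene of the pathway lists is not reported here.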

Additional observations from a re-analysis of the deposited data

Results flagged for a closer look

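Juvenile and adult libraries were examined separately for the 10 members and the 5 called pathway genes, leaving out groups without a count. In 3 of 28 groups, 1 library stood apart from the rest by Dixon's criterion. Chance gives about 1.4 for normally distributed values. Groups with several counts of 0 do not meet that condition, so nothing was read from the difference. Fcgr1 was at 0.288 CPM in juvenile replicate 2 and at 0 in the other juvenile libraries, which rests on 2 counts. Fcgr3 was at 8.50 CPM in juvenile replicate 2 and between 0 and 1.50 CPM in the other juvenile libraries. Trem2 was at 4.13 CPM in juvenile replicate 4 and between 0 and 0.636 CPM in the other juvenile libraries.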

How the results depend on the processing

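edgeR called 520 genes (253 higher in adult, 267 higher in juvenile libraries), among them 2 members and 5 pathway genes. DESeq2 with its default settings called 1492 genes (772 and 720), 4 members (adding Fcgr1 and Pirb) and 13 pathway genes. With the replicate number as a block the counts were 89 (36 and 53), 1 member and 1 pathway gene. Residuals of juvenile and adult libraries with the same number correlated between -0.0318 and 0.0303, and 2 of 4 adult libraries correlated best with their own number. Whether libraries of the same number shared a processing step was not tested. Without juvenile replicates 4 and 5 together, the libraries with Ddx3y counts, 73 genes (31 and 42), 1 member and 0 pathway genes were called.

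Leaving out 1 library at a time gave 262 to 651 genes in all, 117 to 345 higher in adult and 145 to 306 higher in juvenile libraries, 1 to 3 members and 2 to 10 pathway genes. The lowest total came without juvenile replicate 5 and the highest without adult replicate 2, when Fcgr1 was called as well. Totals of all genes moved by over 1.5 times without juvenile replicate 2 (332), 3 (293), 4 (275) or 5 (262). The member count was 1 without juvenile replicate 2, 3, 4 or 5 or adult replicate 3 or 4, where Tyrobp was no longer called. As this contrast chose the members, these counts support nothing. Over the 18 alternatives the log2 fold change was 1.41 to 1.85 for Fcer1g and 0.97 to 1.44 for Tyrobp. Zap70 was tested in only 13 of these 18, and without any adult count its direction could not change. The adjusted p values over the alternatives in which a gene was tested reached 0.113 for Clec12a, 0.138 for Nfatc1, 0.121 for Dok3 and 0.152 for Zap70. Directions were unchanged. The cause of these shifts was not tested. No scaling moved the median log2 fold change of all genes by over 0.1. The Fcγ receptors and Trem2 had juvenile levels at or near the floor of 3 counts in most libraries. Whether depth or another step led to these low counts was not tested.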

Other observations

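Marker genes of other cell types were measured in the same libraries. All 6 tested erythroid markers were higher in adult libraries. The monocyte marker Ly6c2 (log2 fold change 5.68, SE 1.18, edgeR adjusted p = 0.0189), Nkg7 of the T and NK cell list and the megakaryocyte marker Pf4 were the calls of their lists (1 of 5, 1 of 1 and 1 of 3 tested genes). Ly6c2 (0, 38, 0, 1 and 0 juvenile counts) and Nkg7 (2, 15, 0, 0 and 1) passed the filter on low counts through the adult libraries. In the list of Nkg7, Cd3e and Klrb1c had no adult count, Cd8a had 2, and Cd4 had a lower adult mean. Cd3d, Gzma and Ncr1 had higher adult means and were not tested. Of 9 osteoblast markers 5 were higher in juvenile and 1 was higher in adult libraries. Among marrow stroma markers Cxcl12 was higher in adult and Lepr in juvenile libraries, and among chondrocyte markers Col2a1 was higher in adult libraries (6 and 5 tested genes). Summed chondrocyte markers were highest in adult replicate 2 (4099 CPM). The lowest adult sum was 583 CPM, and juvenile libraries ranged from 357 to 983 CPM. edgeR called 0 of 4 tested dendritic cell and 0 of 5 tested B cell markers, with 0 and 1 at an unadjusted p under 0.05 and 0 and 1 called by DESeq2.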
